A study of Mus musculus with 4 samples.

Results

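Runx2 binding was described at 9 genes of the Polycomb group other than Ezh2: Ezh1, Suz12, Eed and Jarid2 of Polycomb repressive complex 2 (PRC2), and Bmi1, Ring1, Rnf2, Cbx2 and Cbx7 of Polycomb repressive complex 1 (PRC1). The genes were chosen by name from 22367 protein-coding genes of GENCODE M1. For each gene, all peaks were taken that shared at least 1 bp with the gene body widened by 20 kb on each side, which is called the window. The windows held 31 of 25457 peaks at day 0, 56 of 60596 at day 9 and 45 of 40330 at day 28. Peaks of the 3 lists that shared bases were merged, which gave 57 regions in the 9 windows, out of 67703 in the genome.

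The cells were MC3T3-E1 subclone 4, a preosteoblast line derived from mouse calvaria (strain C57BL/6), used at passages 28-31. Chromatin was precipitated with the M70 antibody to Runx2, the transcription factor that directs bone formation, from proliferating cells at day 0, from matrix-depositing cells at day 9 and from mineralizing cells at day 28. Differentiation was induced with ascorbic acid and beta-glycerophosphate, and input DNA of day 9 cells was the control for peak calling on all 3 days. The 2 replicate libraries of each day were pooled before peaks were called, so each day has 1 list, the spread between replicates is not known and the days were not tested against each other. The lists carry no read counts, so the number of reads behind each peak is not given here, and by the study's methods the proliferating cells were sequenced more deeply than the later stages.

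PRC2 places methyl groups on lysine 27 of histone H3. Ezh1 and Ezh2 are its alternative catalytic subunits, Suz12 and Eed are core subunits needed for activity, and Jarid2 is an accessory subunit that helps recruit the complex. PRC1 places ubiquitin on histone H2A through the ligases Ring1 and Rnf2, with Bmi1 as a partner of the ligase, while Cbx2 and Cbx7 carry chromodomains that bind methylated H3. Both complexes keep developmental genes silent, and Polycomb activity is known to restrain lineage genes in precursor cells.

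The lists measure where Runx2 was bound and not how much of any transcript was made, so the osteoblast state can be checked only through binding at osteoblast genes. In the windows of 6 such genes, in the order day 0, day 9 and day 28, Bglap2 (osteocalcin) had 0, 12 and 10 peaks. Sp7 (osterix) had 5, 13 and 8, and Alpl (alkaline phosphatase) had 6, 25 and 22. Col1a1 had 8, 22 and 13, Ibsp had 1, 5 and 6, and Runx2 itself had 13, 24 and 19. All 6 had more peaks at day 9 than at day 0, as did 60.3% of all windows, and the day 9 list is the longer one.

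The sequence that Runx proteins recognise has the core TGTGGT. The following stretches of mm9 hold that core within 50 bp of the centre of a peak on at least 1 day. They lie inside or beside Ezh1, Jarid2, Cbx2 or Cbx7 and are examples, since other such stretches of these windows are not shown. Each has the core in capitals and is read 5′ to 3′ on the strand that carries the core. They are, in order, chr11:101087540-101087569 (minus strand), chr11:101082748-101082777 (plus), chr13:44998894-44998923 (plus), chr13:45008414-45008443 (plus), chr11:118895705-118895734 (plus), chr15:79765421-79765450 (minus) and chr15:79757953-79757982 (minus).
Ezh1 start: tgtcgtcccgagTGTGGTgggacccggggc
Ezh1 intron 1: gggagtgctggcTGTGGTgattaataggtg
Jarid2 intron 7: ctctagagttgcTGTGGTtgggcagtgtcc
Jarid2 intron 12: taaggctatgccTGTGGTttggctctgtgc
Cbx2 downstream: gctgtcccgtgcTGTGGTaaactcagttgc
Cbx7 start-site peak: tttgtggattccTGTGGTtttgtgtgtgtg
Cbx7 intron 2: gcccctctctaaTGTGGTttcacagcttgc

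Most start-site peaks of these genes had no such core at their centre and lay on DNA rich in G and C. The 100 bases upstream of the outermost start of Suz12 (chr11:79806508-79806607, plus strand), Eed (chr7:97129494-97129593, minus), Bmi1 (chr2:18598545-18598644, plus) and Ring1 (chr17:34161626-34161725, minus) are shown as examples. Capitals mark GGGCGG, the GC box bound by Sp factors, or ATTGG, the CCAAT box, on either strand.
Suz12 upstream: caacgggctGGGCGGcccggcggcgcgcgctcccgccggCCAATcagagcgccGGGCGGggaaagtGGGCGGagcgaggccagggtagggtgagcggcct
Eed upstream: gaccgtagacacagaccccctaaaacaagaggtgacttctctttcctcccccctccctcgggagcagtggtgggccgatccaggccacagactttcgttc
Bmi1 upstream: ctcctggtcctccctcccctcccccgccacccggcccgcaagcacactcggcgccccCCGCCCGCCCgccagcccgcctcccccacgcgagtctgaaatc
Ring1 upstream: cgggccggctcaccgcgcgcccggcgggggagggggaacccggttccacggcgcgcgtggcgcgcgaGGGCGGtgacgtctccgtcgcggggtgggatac

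These 4 stretches were 79%, 59%, 78% and 81% G and C, with 15, 4, 11 and 20 CpG dinucleotides. The Suz12 stretch held 4 matches and the Eed stretch held 0.

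Runx2 bound at or near the start of nearly all of the 9 genes on every day. A start-site peak, which comes within 1 kb of the start of a protein-coding transcript, was present for 8 of 9 genes at day 0, 9 of 9 at day 9 and 9 of 9 at day 28. Among all protein-coding genes the shares were 43.6%, 53.3% and 51.1%. The 8 genes with a start-site peak on all 3 days were Suz12, Eed, Jarid2, Bmi1, Ring1, Rnf2, Cbx2 and Cbx7, against 42.5% of all genes. Ezh1 was the exception, with none at day 0. With the study's narrower promoter, applied to peak centres, 5 genes (Suz12, Jarid2, Bmi1, Ring1 and Rnf2) had a start-site peak on all 3 days. Among peaks that passed a p-value of 1e-50 it was 2 (Suz12 and Eed). Shares of all genes under these stricter settings are not given here, so the 42.5% is not their background. Each of the 9 windows held at least 1 peak on every day, as did 65% of all windows at day 0, 77% at day 9 and 71.2% at day 28.

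The strength of a peak is given by the score of the peak caller, 10 times the negative log10 of its p-value. Scores rise with read depth, so each peak was ranked within its own list, and a percentile of 90 means that 90% of the peaks of that day scored lower. Where a gene had several start-site peaks on a day, the highest is given. Peaks with a score of exactly 3100 were tied, 192 of them at day 0, 2699 at day 9 (all at percentile 97.4) and 1468 at day 28 (all at 97.8).

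**Figure D1:**
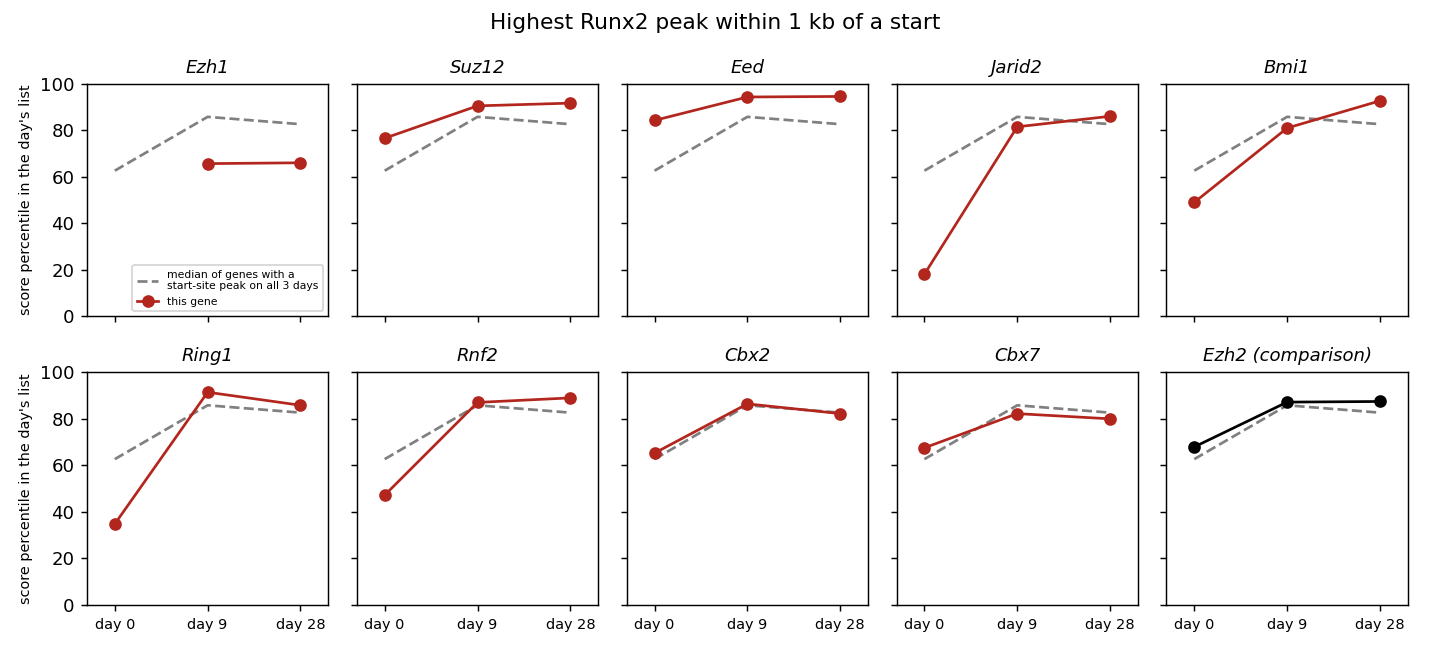
Score percentile of the highest start-site peak (vertical axis, 0 to 100, within the list of each day) at days 0, 9 and 28 for the 9 genes and, in black, Ezh2. The dashed line is the median of the 9495 protein-coding genes with a start-site peak on all 3 days, at 62.6, 85.7 and 82.6. Jarid2 has the lowest point at day 0 (18.1), Eed is the highest gene on each day, and Ezh1 has no point at day 0.

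In PRC2, the catalytic subunit Ezh1 (chr11:101052429-101087777, minus strand) had no start-site peak at day 0, and its start-site peak ranked at percentile 65.6 at day 9 and 66.0 at day 28. These were the lowest values of the 9 genes on both days. The day 28 peak covered the start and reached into the first intron, with the core TGTGGT 28.5 bp from the peak centre. At day 9 the same core lay 111.5 bp from the centre.

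Suz12 (chr11:79806608-79847625, plus strand), which stabilises PRC2, had a start-site peak at percentile 76.5 at day 0, 90.4 at day 9 and 91.6 at day 28. Eed (chr7:97103166-97129493, minus strand), the subunit that binds methylated H3, had one at 84.2, 94.3 and 94.5. Eed thus carried the highest-ranked start-site peak of the 9 genes on all 3 days. Its peaks were 1247, 1620 and 1441 bp wide and held no TGTGGT anywhere.

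Jarid2 (chr13:44824843-45017012, plus strand) stood at the other end at day 0, with a start-site peak at percentile 18.1. The value was 81.5 at day 9 and 86.0 at day 28, so the difference between days 0 and 9 was 63.3 percentile points, more than for any other of the 9 genes. The peak lay among the upstream starts of the gene, which has 9 annotated coding starts, and no peak lay within 1 kb of the internal starts at 44936060 and 44936183.

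In PRC1, Bmi1 (chr2:18598645-18608256, plus strand) had a start-site peak at percentile 49.0 at day 0, 80.9 at day 9 and 92.6 at day 28. It ranked 11.7 points higher at day 28 than at day 9, the largest such difference among the 9 genes. The day 0 peak was 570 bp wide and the later peaks were 1840 and 1862 bp wide.

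The ligase Ring1 (chr17:34157737-34161625, minus strand) had a start-site peak at percentile 34.8, 91.4 and 85.8 on the 3 days. The ligase Rnf2 (chr1:153316536-153347953, minus strand) had one at 47.1, 87.0 and 88.9. The comparison is the median of all genes with a start-site peak on all 3 days. Both ranked below that median (62.6) at day 0 and above it (85.7 and 82.6) at days 9 and 28.

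The chromodomain gene Cbx2 (chr11:118884276-118892584, plus strand) had a start-site peak at percentile 65.2, 86.4 and 82.2. Cbx7 (chr15:79746237-79801549, minus strand) had one at 67.5, 82.2 and 79.9. Over the 3 days Cbx2 and Cbx7 were each other's closest genes, at a Euclidean distance of 5.27 percentile points among 33 Polycomb genes compared, a description over 3 time points only. Both lay within 5 points of the median of all genes with a start-site peak on all 3 days, on every day.

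The position of the Cbx7 peak differed from that of the other genes. Its centre lay 1098, 1152 and 1091 bp upstream of the nearest of its inner starts (79762970 to 79764329), and no peak on any day lay within 1 kb of the outer starts at 79801548 and 79801549. The peak carried TGTGGT within 50 bp of its centre on all 3 days, at 8.5, 45.5 and 15.5 bp. It was also poorer in G and C (44.2%, 45.6% and 47.1%) than the start-site peaks of the other genes, which were between 59.1% and 73.5%. At day 28 a second, low-ranked peak (percentile 1.71) lay over the inner starts and held no TGTGGT.

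All 8 genes with a start-site peak on every day ranked higher within the day 9 list than within the day 0 list. So did 90.8% of the 9495 such genes in the genome. Between days 9 and 28, 5 of the 8 (Suz12, Eed, Jarid2, Bmi1 and Rnf2) ranked higher, against 35.4% of such genes. The medians of the 8 genes were 57.1, 86.7 and 87.4, beside 62.6, 85.7 and 82.6 in all such genes. For comparison, Ezh2 ranked at 67.9, 87.1 and 87.4, and its window held 1 peak per day, all at the start. Ranked among start-site peaks only, Cbx7 was lower at day 9 (60.3) than at day 0 (61.9), while the others of the 8 were still higher.

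The number of peaks in the windows differed widely among the genes. From day 0 to day 9 to day 28, the PRC2 genes had 2, 8 and 7 peaks (Ezh1), 2, 1 and 1 (Suz12), 1, 2 and 3 (Eed) and 7, 9 and 8 (Jarid2). The PRC1 genes had 4, 4 and 4 (Bmi1), 4, 13 and 7 (Ring1), 1, 2 and 2 (Rnf2), 5, 7 and 5 (Cbx2) and 5, 10 and 8 (Cbx7). Day 9 exceeded day 0 in 7 of 9 windows, against 60.3% of all windows. Day 28 exceeded day 9 only in the window of Eed, against 6.58% of all windows, and was lower in 5 and equal in 3. The lists themselves differ in length, and when each was reduced to its 25457 highest-scoring peaks the 9 windows held 31, 34 and 31 peaks.

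**Figure D2:**
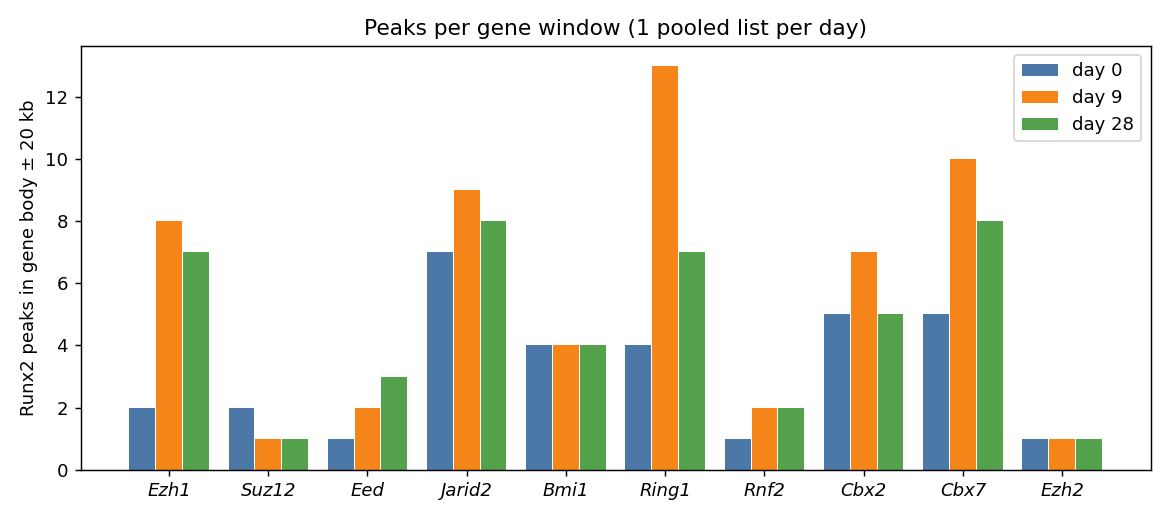
Number of Runx2 peaks (vertical axis) in the gene body widened by 20 kb on each side, for the 9 genes and Ezh2, with 1 bar for each day's pooled list and no error bar. Ring1 has the tallest bar, 13 peaks at day 9, while Suz12, Rnf2 and Eed never exceed 3.

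Windows differ in length, from 43.889 kb (Ring1) to 232.17 kb (Jarid2), so merged regions were also counted per 100 kb. Ring1 had 27.3 regions per 100 kb, at percentile 99.4 among protein-coding genes. Cbx2 had 14.5 (percentile 91.6), Cbx7 11.5 (85.7), Ezh1 9.29 (79.2) and Bmi1 8.06 (74.5). Eed (4.52), Jarid2 (3.88), Rnf2 (2.80) and Suz12 (2.47) were near or below the middle, at percentiles 54.6, 49.4, 42.2 and 39.8. Ezh2, with 0.952 regions per 100 kb, was at percentile 23.7.

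A window of this width also reaches neighbouring genes. The coding start nearest to the peak centre was that of the Polycomb gene itself for 58.1% (95% exact binomial interval 39.1 to 75.5) of the window peaks at day 0, 51.8% (38.0 to 65.3) at day 9 and 60% (44.3 to 74.3) at day 28. These intervals cover counting error only. Of the 57 merged regions, 10 lay at the start of the Polycomb gene, 13 at the start of another gene, 16 elsewhere inside the Polycomb gene and 18 outside both.

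Of the 57 regions, 29 had a peak on all 3 days, which is 50.9% (37.3 to 64.4) beside 27.4% of the 67703 regions of the genome. A further 11 had a peak at day 9 only, 10 at days 9 and 28, 5 at day 28 only and 2 at day 0 only. The genome share was not split by distance to a start. Regions at the Polycomb start had peaks on all 3 days in 8 of 10 cases. Those at the start of another gene did so in 9 of 13, and those elsewhere inside the Polycomb gene in 9 of 16. Regions outside any start and any of the 9 genes did so in 3 of 18, and 6 of those 18 were bound at day 9 only.

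**Figure D3:**
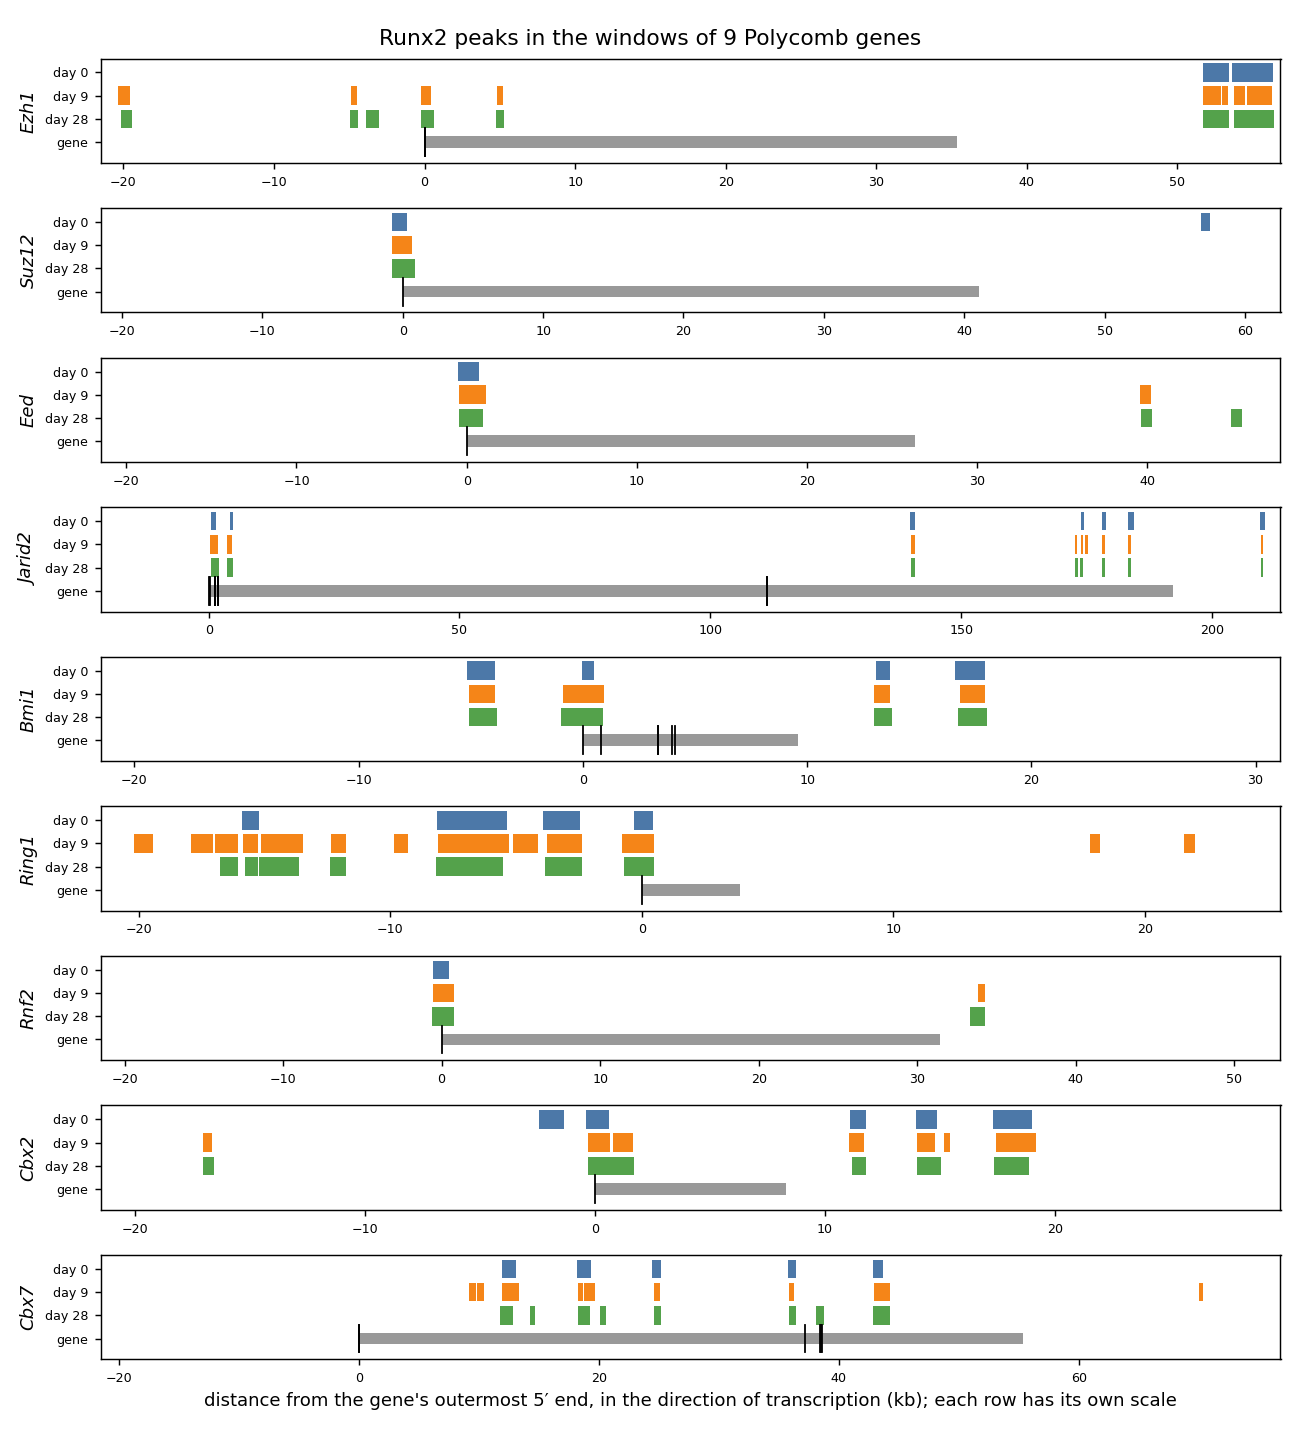
Positions of all peaks in the 9 windows at day 0 (blue), day 9 (orange) and day 28 (green). The horizontal axis is the distance in kb from the outermost 5′ end of the gene in the direction of transcription, with a separate scale for each gene. The grey bar is the gene body and the black ticks are its coding starts. In 8 of the 9 genes a peak lies within 1 kb of the outermost 5′ end at days 9 and 28, while the peaks of Cbx7 lie along its gene body and most of those of Ring1 lie upstream of it.

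The Ring1 window held 12 merged regions, of which 1 was at the Ring1 start and 0 were inside the rest of the gene. The nearest starts of the others were those of Col11a2 (5 regions), a fibrillar collagen gene, H2-K1 (2), an MHC class I gene, H2-Ke6 (2), Slc39a7 (1), a zinc transporter gene, and Rxrb (1), a retinoid X receptor gene. Of the 12 regions, 4 had a peak on all 3 days and 6 had a peak on a single day, which was day 9 for all 6. All 11 regions other than the one at the Ring1 start were thus nearer to another gene.

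In the Ezh1 window, the highest peaks lay 17220 and 19683 bp beyond its 3′ end, nearest to the starts of Ccr10, a chemokine receptor gene, and Plekhh3. The Ccr10 region ranked at percentiles 89.3, 97.4 and 97.8 on the 3 days and the Plekhh3 region at 84.4, 93.0 and 95.6. They were the only 2 Ezh1 regions with a peak at day 0. The regions nearest to the Ezh1 start itself appeared at day 9 or day 28, including an intron 1 region that ranked at 55.6 at day 9 and 1.31 at day 28 and had TGTGGT within 3.5 and 1.5 bp of the peak centres.

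Jarid2 had 7 regions inside the gene apart from its start. They lay in intron 1, intron 3, exon 7, intron 7 (2 regions) and intron 9 of the longest coding transcript, and the last spanned introns 12 and 13, with the peak centre in intron 13 at day 0 and in intron 12 at days 9 and 28. The intron 1 region followed the start, at percentiles 8.93, 77.5 and 77.6. Other regions ranked highest at day 0: the intron 9 region at 61.6, 40.2 and 16.0, and the region across introns 12 and 13 at 91.8, 81.7 and 73.4. Cores TGTGGT lay near the peak centre in 3 of the 7, in the exon 7 region, 1 of the intron 7 regions and the region across introns 12 and 13, where the core lay in intron 12, 7.5 and 40.5 bp from the centres of the day 9 and day 28 peaks and 273.5 bp from that of day 0. The printed intron 7 core lay 10.5 bp from the centre at day 28. It lay 86.5 and 88.5 bp from the centres at days 0 and 9, when another core was nearer. The remaining Jarid2 region lay downstream, nearest to the start of Dtnbp1.

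Cbx7 had 8 regions inside the gene apart from the pair at its inner starts, of which 4 had a peak on all 3 days, 2 at day 28 only and 2 at day 9 only. The regions with a peak on a single day ranked at 34.0 or lower. The intron 2 region ranked at 28.0, 67.8 and 70.6, with the printed core 0.5 bp from its centre at day 28 and 277.5 and 281.5 bp from it at days 0 and 9. The last region, downstream and at day 9 only, was nearest to the start of Apobec3, a cytidine deaminase gene.

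The Cbx2 window overlaps the neighbouring Polycomb gene Cbx8, whose start was the nearest for 4 of its 7 regions. One of them, at the Cbx8 start, ranked at 77.2, 90.6 and 86.1, above the Cbx2 start-site peak on all 3 days. The region 3108 bp downstream of Cbx2 carried the printed core and ranked at 34.9, 74.4 and 76.1. In the Bmi1 window all 4 regions had peaks on all 3 days, and the highest, 7715 bp downstream and nearest to Gm13334, ranked at 98.4, 97.4 and 97.8. Another was nearest to Commd3. The single further regions or pairs at Suz12, Eed and Rnf2 were nearest to Crlf3, l7Rn6 (2 regions) and Rnf2 itself, and all ranked at 36.5 or lower.

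The core TGTGGT lay within 50 bp of the centre in 3 of 31 window peaks at day 0 (9.68%, interval 2.04 to 25.8), 8 of 56 at day 9 (14.3%, 6.38 to 26.2) and 9 of 45 at day 28 (20%, 9.58 to 34.6). In the whole lists the shares were 16%, 25.3% and 20.9%, each within the interval of the window peaks of that day. In windows 450 to 550 bp from the same centres it was found in 4.84%, 7.14% and 10.0%.

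**Figure D4:**
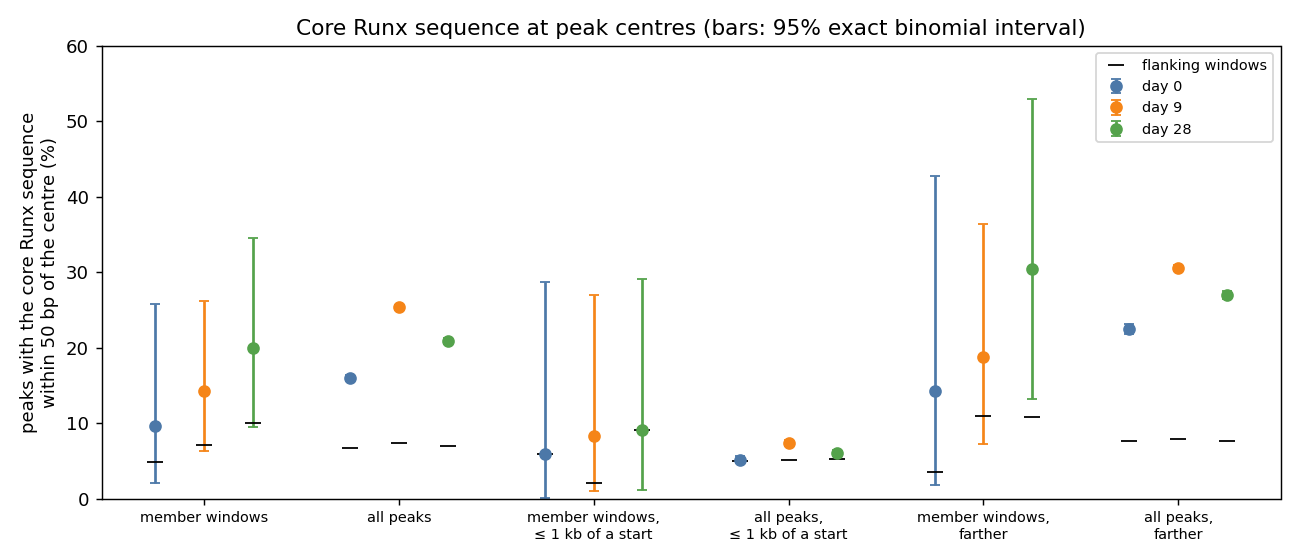
Share of peaks (vertical axis, percent) with TGTGGT on either strand within 50 bp of the centre, for the peaks of the 9 windows and all peaks of each day, together and split by whether a coding start lies within 1 kb. Bars are 95% exact binomial intervals and black dashes are windows 450 to 550 bp from the centre. Peaks away from starts lie higher than peaks at starts in all peaks (22.5%, 30.6% and 27.0% against 5.16%, 7.38% and 6.03%), and the intervals of the window peaks are wide.

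At the start-site peaks alone the core was at the centre in 1 of 8 peaks at day 0 (Cbx7), 1 of 10 at day 9 (Cbx7) and 2 of 10 at day 28 (Cbx7 and Ezh1). Start-site peaks had a median G and C content of 70.8%, 68.6% and 66.1%, beside 56.1%, 55.9% and 56.5% in the other window peaks. Their median ratio of observed to expected CpG was 0.923, 0.856 and 0.847, beside 0.591, 0.301 and 0.345. The other window peaks include peaks at the starts of neighbouring genes. Values for the start-site peaks of all genes are not given here, so these medians do not set the 9 genes apart from other genes. In the 100 bp on either side of the outermost start, TGTGGT was found in 0 of the 9 genes. Its shares were 10.1% of all protein-coding genes and 7.49% of those with a start-site peak at day 9. GGGCGG was found in 6 (Ezh1, Suz12, Bmi1, Ring1, Rnf2 and Cbx2), against 40.4% of all genes and 59.1% of genes with a start-site peak at day 9. ATTGG was found in 5 (Suz12, Eed, Jarid2, Cbx2 and Cbx7), against 27.3% of both. For Jarid2 and Cbx7 this stretch around the outermost start lay outside every start-site peak. CCGGAAG, the letters of the ETS sequence, were in 0 of the 9, against 9.4% and 15.4% of these same 2 sets. The CRE sequence TGACGTCA, the NRF1 sequence and the YY1 sequence AAGATGGC were also in 0 of the 9. Their shares were 1.95%, 1.03% and 3.08% of all genes, and 2.85%, 1.74% and 4.51% of those with a start-site peak at day 9.

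Most of 27 other Polycomb genes also had a start-site peak. It was present in 24, 26 and 26 of the 27 on days 0, 9 and 28, and on all 3 days in 24, beside 42.5% of all genes. The exceptions were the PRC2 accessory gene Phf19 (day 9 only) and the H3 lysine 27 demethylase genes Kdm6a (days 9 and 28) and Kdm6b (day 28 only). Kdm6b nevertheless had 10 merged regions in its window, exceeded in this list by Phc2 with 14 and Kdm2b with 13. Cbx6, which lies near Cbx7, ranked at 82.9, 91.9 and 91.8.

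By the same distance over the 3 start-site percentiles, the closest Polycomb gene was Cbx8 for Suz12 (5.61 points), Bap1 for Eed (2.69), Phc2 for Jarid2 (6.61), Rnf2 for Bmi1 (7.33) and Phf1 for Rnf2 (3.81). Phc2 and Jarid2 shared a low rank at day 0, with Phc2 at 14.4, 77.2 and 82.6. A low rank at day 0 was not particular to this pair, since other genes of the list ranked lower still, down to 1.90.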

How the data were processed

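Runx2 ChIP-Seq peaks of MC3T3-E1 cells were analysed at days 0, 9 and 28, with 1 list per day. According to the submitters' processing notes, CASAVA (version 1.6), Bowtie (version 0.12.8) and MACS (version 1.4.1) were used with mm9. The authors pooled the 2 libraries of each day, called peaks against day 9 input DNA, kept those past a p-value of 1e-10 and deposited a score per peak, which is −log10 of its p-value multiplied by 10. Replicate lists, read signal and the input library were not analysed here, and the lists hold no read counts.

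Gene bodies and coding starts came from GENCODE M1 (Ensembl 65) and sequence from NCBIM37, which is mm9. All peak ends lay within its chromosomes. Windows added 20 kb to each gene body, regions merged peaks sharing at least 1 bp, percentiles were mid-ranks within a list, and intervals were exact binomial (Clopper-Pearson, 95%). Exon and intron numbers refer to the coding transcript with the longest span. The same measures over all protein-coding genes, or all peaks, stand as background. No test was made, since each day has 1 list.

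The genes and lists were chosen with earlier results of these data known. The rule named the 9 genes, Ezh2, every gene whose start was nearest to a window peak, and of 27 other Polycomb genes those without a start-site peak on some day, the 3 with the most regions and those beside one of the 9. The values of 1 of the 27 genes are not reported here. Stretches of 30 bases were shown around TGTGGT. The upstream stretches of 100 bases and the other motifs were added after the values were seen. Alternatives covered the score threshold, window, start definition, merging, list length and motif. Python 3.11.15, NumPy 2.4.6, SciPy 1.17.1, pysam 0.24.0 and Matplotlib 3.10.9 were used. On simulated data, the planted peaks of 200 of 200 genes were recovered.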

Additional observations from a re-analysis of the deposited data

How the results depend on the processing

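Of 115 alternative values, 84 stayed close to the reported value and 31 did not. Close meant within 1.5 times a count, or within the exact binomial interval of a share. For a median it meant inside the range of the single genes' values, leaving out the lowest and the highest, which is a wide range. No paired analysis was possible because each day is 1 pooled list. Leaving out a replicate was not possible for the same reason. The lists hold no read counts, so a missing peak may lie just under the threshold.

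At a p-value of 1e-50 the windows held 10, 29 and 24 peaks on days 0, 9 and 28 and 30 merged regions, TGTGGT lay at the centre of 0% of the day 0 peaks, and 2 genes (Suz12 and Eed) had a start-site peak at day 0, and so on all 3 days. With windows of 50 kb there were 47, 101 and 73 peaks and 102 regions, and 38.3%, 28.7% and 37.0% of the peaks were nearest to the Polycomb start. In the gene body alone there were 17, 26 and 23 peaks and 26 regions, and 100% were nearest to it on each day, while with windows of 10 kb the shares were 71.8% at day 9 and 76.5% at day 28. With equal numbers of top-scoring peaks per list, day 9 had 34 window peaks and the lists gave 37 regions. The promoter span of the study was also used, with peaks placed by their centre and exons and introns not excluded. By that span, 5 genes had a start-site peak on all 3 days. No share of all genes is given for that span or for the stricter p-value. Ranked among start-site peaks only, the median percentile was 49.1 at day 0 (8 genes), 69.0 at day 9 and 69.7 at day 28 (9 genes). Among all peaks the medians over the same genes were 57.1, 86.4 and 86.0. Anywhere in the peak, TGTGGT was found in 51.6%, 53.6% and 51.1% of window peaks.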
